A study of Arabidopsis thaliana with 6 samples.

Results

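Cytokinin oxidases/dehydrogenases (CKX) were examined in guard cell protoplasts (GCPs), which are guard cells freed of their walls by enzymes. The 7 genes of the family in Arabidopsis, *CKX1* to *CKX7*, were found on the array by their locus identifiers, out of 25410 genes that had a probe matched to them. *CKX5* was among the genes that the study had listed for the same contrast on these arrays, so it was chosen by its measured SL/SS ratio, and its difference between the groups is given as a description without a test. The other 6 genes entered as members of the family. Each gene was represented by 1 probe and each probe by 1 spot per array, so that no second probe could be set beside it. The genes are *CKX1* (AT2G41510, chromosome 2), *CKX2* (AT2G19500, chromosome 2), *CKX3* (AT5G56970, chromosome 5), *CKX4* (AT4G29740, chromosome 4), *CKX5* (AT1G75450, chromosome 1), *CKX6* (AT3G63440, chromosome 3) and *CKX7* (AT5G21482, chromosome 5). Older names cross over in the gene table, where *ATCKX5* stands for both AT1G75450 and AT5G21482, and *ATCKX6* for both AT1G75450 and AT3G63440, and for this reason the genes were matched by locus.

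Cytokinins are adenine-derived hormones that promote cell division and shoot growth and delay leaf senescence. They are made by isopentenyltransferases (IPT) and activated by LONELY GUY (LOG) enzymes, and they are sensed by histidine kinase receptors, which pass phosphate through AHP proteins to response regulators in the nucleus. CKX enzymes remove the hormone irreversibly by cleaving its side chain. The members differ in where they act, since some carry a secretory signal whereas CKX7 stays in the cytosol, and each is expressed in its own set of tissues.

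The question was how day length changes gene expression in guard cells. All plants were *Arabidopsis thaliana* of the Columbia background homozygous for *gl1*, a mutation that removes leaf trichomes, and were grown on soil at 22 to 24 degrees Celsius and 50 to 70% relative humidity. SS plants had 5 weeks of short days (8 h of white light), and SL plants had 3 weeks of short days followed by 2 weeks of long days (16 h of white light). RNA of 3 SS samples and 3 SL samples was hybridized in a single colour to 6 Agilent arrays, and samples with the same replicate number came from the same batch of plants, a new batch for each number. White light was given at 100 µmol per square metre per second in short days and at 41 in long days, so day length and light intensity cannot be told apart. The sample labels give ZT8 (8 h after lights on) as the time of isolation for SS and ZT16 for SL, whereas the methods text has ZT16 for both groups. If the labels are right, time of day and day length cannot be told apart either.

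Between 28466 and 30823 of 43603 probes per array had a signal well above background, and saturation affected 0 spots. Of 12 guard cell markers, 12 were kept for testing, among them *TGG1*, a guard cell myrosinase, with a normalized signal between 55061 and 91763. Markers of other leaf cells were also measured in these GCP samples, and their values are given below. In such bulk samples, fewer cells of a type and less RNA per cell cannot be told apart.

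Of the 7 CKX probes, 3 (*CKX4*, *CKX5* and *CKX6*) were well above background on all 6 arrays, and 4 (*CKX1*, *CKX2*, *CKX3* and *CKX7*) did not reach this level on all 3 arrays of either group. The *CKX5* probe was higher in SL than in SS, whereas the *CKX4* and *CKX6* probes were lower in SL in all 3 pairs but did not pass the test. Normalized signals below are on a linear scale, after correction for local background with an added 50 units and quantile normalization over the 6 arrays. A log2 fold change is the SL mean minus the SS mean of log2 signals, and with the added 50 units it understates changes of dim probes. The brightness of different probes does not order the amounts of their transcripts, so each gene is compared only with itself.

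**Figure D1:**
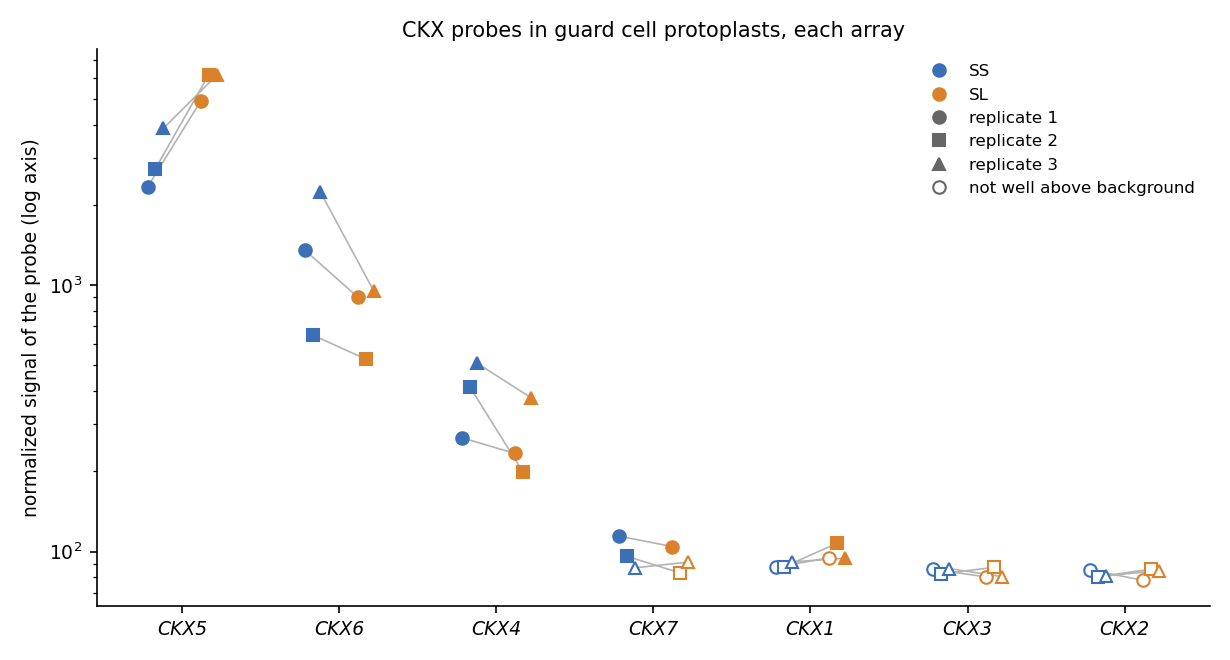
Normalized signal (log axis) of the 7 CKX probes on each array. Blue symbols are SS, orange symbols SL, shapes the replicate numbers, grey lines join same-numbered samples, and open symbols mark arrays on which the probe was not well above background. *CKX5* lies between 2335 and 3874 in SS and between 4924 and 6169 in SL, *CKX4* and *CKX6* overlap between the groups, and the other 4 lie between 77.9 and 114.

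*CKX5* encodes a family member known from mutants that lack it together with *CKX3*, which form larger inflorescence meristems and more seeds. Its normalized signal was 2335, 2735 and 3874 in SS replicates 1 to 3, and 4924, 6169 and 6130 in SL replicates 1 to 3. All SL arrays lay above all SS arrays, and the nearest were SS replicate 3 and SL replicate 1. Over all probes kept, 4.03% had all 3 SL arrays above all 3 SS arrays, a share given only as background here because the study chose this gene for this contrast. The mean was 2981 ± 798 in SS and 5741 ± 708 in SL (SD, n = 3). The SL/SS ratio was 2.11, 2.26 and 1.58 in pairs 1 to 3, with a mean of 1.98 ± 0.354 (SD, 3 pairs), so that pair 3, which held the brightest SS array, gave the smallest ratio. On the log2 scale the difference was 0.97, with a standard error of 0.22 without and 0.12 with the replicate block, that is, with each same-numbered pair compared within itself. Of the 18001 genes with a kept probe, 20 (0.111%) had a higher log2 fold change, and the median over all genes was 0.01. This place was partly set beforehand, because the study chose *CKX5* by its ratio on these arrays, and it is a description only.

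The spread of *CKX5* within the groups followed the replicates only in part. Relative to the SS mean of log2 signals, SS replicates 1 to 3 lay at -0.32, -0.09 and 0.41. In SL, replicate 1 lay at -0.21 and replicates 2 and 3 at 0.11 and 0.10. Replicate 1 was therefore the lowest in both groups, and the SL arrays 2 and 3 were closer to each other than any SS arrays were. Replicate 1 of both groups was hybridized on one slide and replicates 2 and 3 on the other, and the difference between the groups was present on both slides, as the pair ratios show. Across the alternatives run, the log2 fold change lay between 0.81 and 1.18, both of these from leaving out a single array.

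*CKX4* encodes a member of the family predicted to be secreted. Its normalized signal was 267, 416 and 508 in SS replicates 1 to 3 and 233, 199 and 378 in SL replicates 1 to 3. The groups overlapped, since SL replicate 3 exceeded SS replicate 1, but in each pair the SL array was the lower one. The ratios were 0.873, 0.478 and 0.744 in pairs 1 to 3, with a mean of 0.698 ± 0.202 (SD, 3 pairs). Over all probes, 23.6% were lower in SL in all 3 pairs. The log2 fold change of *CKX4* was -0.56 with a 95% confidence interval of -1.33 to 0.21 in limma without the block (adjusted p = 1.00). With the replicate block the interval was -0.97 to -0.15, and the limma adjusted p was 0.119 (unadjusted p = 0.0153). Exact two-sided permutation tests gave p = 0.2 for 3 arrays against 3, where the smallest possible is 0.1, and p = 0.25 for the 3 pairs, which is the smallest possible. Pair 2 gave the largest part of the difference. Leaving out single arrays moved the log2 fold change of *CKX4* to -0.36 without SS replicate 3 and to -0.37 without SL replicate 2. In the other direction it moved to -0.83 without SL replicate 3 and to -0.82 without SS replicate 1.

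*CKX6*, another member of the family, varied most among arrays of one group of the 3 probes kept. Its normalized signal was 1355, 650 and 2236 in SS replicates 1 to 3 and 899, 527 and 950 in SL replicates 1 to 3. SS replicate 2 lay below SL replicates 1 and 3, so the groups overlapped, and the highest SS array was 3.44-fold above the lowest. The lowest array of both groups was replicate 2 and the highest was replicate 3. Relative to the group means of log2 signals, replicates 1 to 3 lay at 0.11, -0.95 and 0.83 in SS and at 0.23, -0.54 and 0.31 in SL, with the same order of replicates in both groups. Within pairs, the SL/SS ratio of *CKX6* was 0.663, 0.811 and 0.425, with a mean of 0.633 ± 0.195 (SD, 3 pairs), so that SL was lower in all 3 pairs, as for 23.6% of all probes.

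Taken over arrays, the *CKX6* mean was 1413 ± 794 in SS and 792 ± 231 in SL (SD, n = 3). The log2 fold change was -0.71 with a 95% confidence interval of -1.83 to 0.41 in limma without the block (adjusted p = 1.00). The interval with the replicate block was -1.14 to -0.28, with a limma adjusted p of 0.0800 (unadjusted p = 0.00668). Exact two-sided permutation tests gave p = 0.3 for the arrays and p = 0.25 for the pairs. *CKX6* therefore did not pass the test in either fit, and its size rested on single arrays, since it was -0.29 without SS replicate 3 and -1.18 without SS replicate 2. The range of limma adjusted p over the alternatives was 0.0603 to 1 for *CKX6* and 0.0966 to 1 for *CKX4*.

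**Figure D2:**
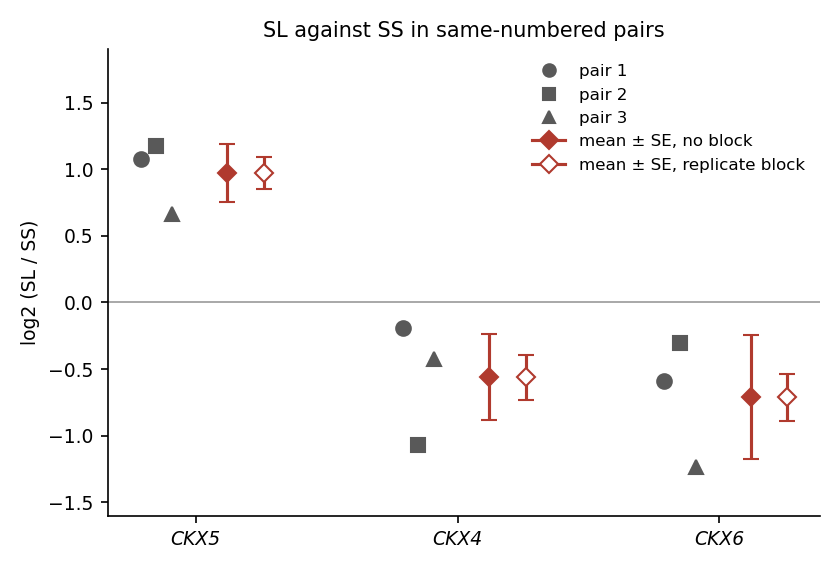
Log2 ratio of SL to SS for the 3 CKX probes above background. Grey symbols are the same-numbered pairs, filled diamonds the mean with its standard error without the replicate block, and open diamonds the same mean with the standard error of the fit with the block. *CKX5* lies above 0 and *CKX4* and *CKX6* below 0 in all 3 pairs, and no test was made for *CKX5*.

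Without the replicate block, limma called 0 of 28852 probes at an adjusted p under 0.05 (0% of probes) and therefore 0 CKX genes, and 1185 probes (4.11%) had an unadjusted p under 0.05. With the block, 1297 probes (4.5%) were called, 387 (1.34%) higher and 910 (3.15%) lower in SL. Of the 2 CKX genes tested, *CKX4* and *CKX6*, 0 were among them, and both had an unadjusted p under 0.05 with the block. With the slide as a block in limma, 0 probes were called and 1539 (5.33%) had an unadjusted p under 0.05. The methods' t-test gave 1365 probes (4.73%) at an unadjusted p under 0.05 and 0 after Benjamini-Hochberg adjustment. Neither *CKX4* nor *CKX6* had an unadjusted p under 0.05 in these last fits.

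Most mesophyll and vascular markers were lower in SL in all 3 pairs, as *CKX4* and *CKX6* were. Of all probes, 23.6% were lower and 23.1% higher in SL in all 3 pairs, and the block called 3.15% lower. Of 9 mesophyll markers, 7 were lower in all 3 pairs and the same number were called lower with the block, and their summed normalized signal lay between 83617 and 160684 in SS and between 39687 and 80212 in SL. The other 2, *CA1* and *GLDP1*, were higher in SL in all 3 pairs, at log2 fold changes of 0.35 and 0.25, and neither was called. Of 7 vascular markers, 5 were lower in all 3 pairs and 1, the sucrose exporter gene *SWEET11*, was called with the block, and their sum was 4165 to 7600 in SS and 2410 to 4422 in SL. The phloem marker *SUC2* was higher in all 3 pairs, at 0.09, and was not called. Of 7 epidermal markers, 3 of the 6 kept were lower in all 3 pairs and 0 were called, with sums of 16672 to 28441 in SS and 15275 to 19076 in SL. The median log2 fold change was -0.90 for mesophyll, -0.30 for vascular and -0.26 for epidermal markers, beside -0.08 for the 12 guard cell markers. In all 3 pairs, 4 of these 12 lay below SS and 0 lay above it, and the block called 0, with *ALMT12* and *MYB60* both at -0.38 (limma adjusted p = 0.0902 and 0.0947 with the block). The guard cell sums, to which the *TGG1* probe added most, were 116954 to 195244 in SS and 119140 to 161601 in SL and overlapped. Of these markers, all but *PDF1* and *GL2* were well above background on 6 of 6 arrays, and these 2 were so on 4. The part of other cells in the values of *CKX4* and *CKX6* was not tested.

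The 4 dim members gave signals close to those of the negative control spots. The median of the negative control spots lay between 48 and 66 raw units per array. *CKX2*, which encodes a secreted enzyme and acts in the HAIKU pathway of endosperm growth, was well above background on 0 of 6 arrays, with raw signals of 51 to 74 and normalized signals of 77.9 to 85.8. *CKX3*, the partner of *CKX5* in the double mutant, was also above on 0 of 6 arrays, with raw signals of 50 to 73 and normalized signals of 80.2 to 87.3. Both probes exceeded the 95th percentile of the negative controls on 4 of 6 arrays. As both groups were short of the level well above background on every array, no fold change is given for *CKX2* and *CKX3*.

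*CKX7*, the cytosolic member, was well above background in SS replicates 1 and 2 and in SL replicate 1. Its normalized signal was 114, 96.0 and 86.8 in SS and 104, 83.1 and 91.2 in SL. The groups overlapped, and replicate 1 was the highest in both.

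*CKX1* was well above background on 0 of 3 SS arrays and on 2 of 3 SL arrays, namely replicates 2 and 3. Its normalized signal was 87.3, 87.5 and 91.4 in SS and 94.8, 107 and 94.4 in SL. All SL arrays lay above all SS arrays, as for 4.03% of the probes kept, although the distance between SS replicate 3 and SL replicate 3 was small. By the means of log2 signals, SL was 1.11-fold higher. Every SS signal lay above the lowest signal well above background on its array. The value is therefore the ratio of the normalized signals as observed, with no SS signal replaced by a background level. It includes SL replicate 1, which was not well above background. Because of the units added to every signal, the 1.11-fold value understates the change of so dim a probe, by an amount that was not tested. *CKX1* did not meet the filter for testing, so this difference carries no p, and a change of this size in a probe so near background rests on few units of raw signal, which lay between 56 and 82.

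The position of each probe on its own array describes how bright the members were. The *CKX5* probe ranked at the 90.2nd to 96.3rd percentile among all 43603 probes, with a median of 94.6, and every SL array ranked it above every SS array. The *CKX6* probe ranked at 70.2 to 89.8 (median 79.2) and the *CKX4* probe at 53.0 to 69.6 (median 61.5). *CKX7* ranked at 13.7 to 40.5, *CKX1* at 24.1 to 38.6, *CKX3* at 6.79 to 24.3 and *CKX2* at 2.96 to 20.6. The order *CKX5*, *CKX6*, *CKX4* was the same on all 6 arrays and the other 4 were always below them. Among these 4, SS replicates 1 and 2 and SL replicate 1 shared an order (*CKX7*, *CKX1*, *CKX3*, *CKX2*). On the remaining arrays the order differed. These ranks belong to probes and not to amounts of mRNA.

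**Figure D3:**
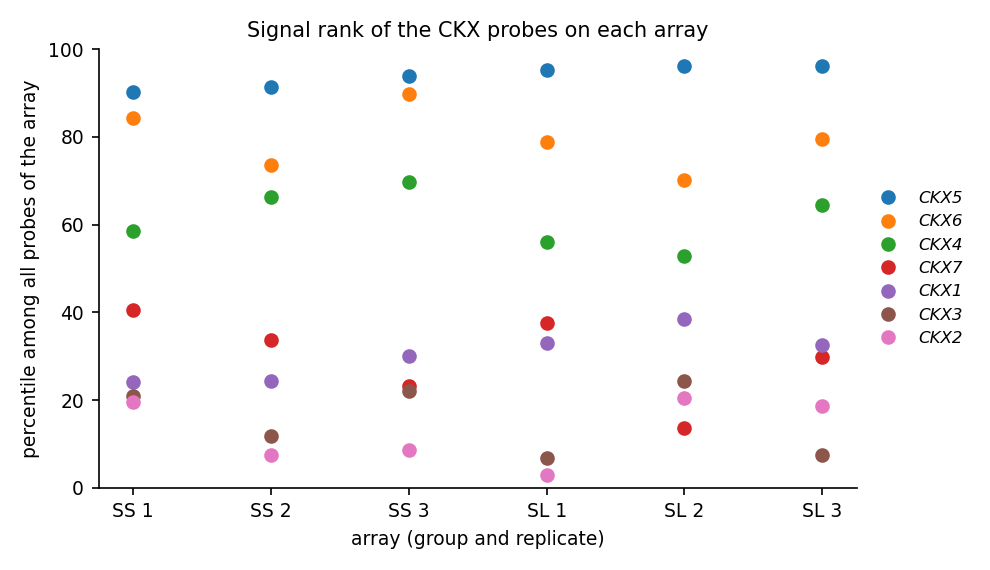
Percentile rank of each CKX probe among the 43603 probes of its array, by array. The *CKX5* probe stays at 90.2 or above, *CKX6* between 70.2 and 89.8, *CKX4* between 53.0 and 69.6, and the 4 dim probes at 40.5 or below with changing order.

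Across the 6 arrays, log2 signals of *CKX4* and *CKX6* correlated with each other at r = 0.56, and those of *CKX5* at -0.29 with *CKX4* and at -0.32 with *CKX6*. These values describe 6 arrays that share batches, slides and the 2 groups, and they are given without a test. The genes most like *CKX5* over the 6 arrays were AT1G15530 (r = 0.994), *ARPC2B* (AT2G33385, r = 0.991), AT3G19020 (r = 0.987), *SAUL1* (AT1G20780, r = 0.987) and *ATM1* (AT3G19960, r = 0.986). In total, 120 of 17992 genes (0.667%) reached an r of 0.9. When both direction and size were compared, by the largest difference between log2 signals centred on their means, *WRKY65* was nearest with 0.16, followed by AT1G15530 with 0.25 and *CCOAMT* with 0.29. The study had listed *CCOAMT* beside *CKX5* for the same contrast on these arrays. Its likeness to *CKX5* in direction and size is therefore partly set by that shared choice. *WRKY65* gave normalized signals of 161, 171 and 249 in SS and 278, 342 and 400 in SL, so that its arrays stood in nearly the same order as those of *CKX5*. Among the cytokinin genes, *AHK3*, a receptor, was the most like *CKX5* with r = 0.74, although its largest difference was 0.68.

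The other genes of the cytokinin pathway were read from lists of 68 genes, of which 62 were on the array and 45 were kept. Without the block, 0 of the 45 were called, and *AHP2* and *AHP3* had an unadjusted p under 0.05 in limma. With the block, 3 were called higher and 0 lower in SL, beside 1.34% and 3.15% of all probes. Higher in all 3 pairs were 10 genes and lower in all 3 pairs 11, beside 23.1% and 23.6% of all probes. The median log2 fold change of the 45 genes was 0.01, like that of all genes. Their log2 fold changes lay between -0.40 and 0.55, and those of *CKX5*, *CKX4* and *CKX6* lay outside this range. For *CKX5* this was partly set beforehand, because the gene was chosen by its measured SL/SS ratio. The limma confidence intervals of *CKX4* and *CKX6* without the block, -1.33 to 0.21 and -1.83 to 0.41, reached into the range. Those with the block, -0.97 to -0.15 and -1.14 to -0.28, did so too. The range therefore does not set the family apart from the lists. The number of list genes called with the block was 0 without pair 1, 0 without pair 2 and 7 without pair 3, and it was 0 with arrays scaled to their 75th percentile. With the processed signal, 0 were called higher and 1 lower, so the single calls below rest on the pairs and on the scaling.

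Of the 20 genes of cytokinin synthesis, 10 were kept. *LOG8*, which encodes one of the enzymes that release active cytokinin from its nucleotide, rose in SL with a log2 fold change of 0.55 (adjusted p = 0.0359 in limma with the block, 1.00 without). Its normalized signal was 605, 946 and 623 in SS and 959, 1447 and 811 in SL, so SL was higher in all 3 pairs while the groups overlapped. *LOG5* was at 0.33 and *LOG3* at -0.25, and neither passed the test. *IPT1*, *IPT4*, *IPT6*, *IPT8* and both hydroxylase genes of trans-zeatin synthesis, *CYP735A1* and *CYP735A2*, were well above background on 0 of 6 arrays, like *CKX2* and *CKX3*.

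Other ways of removing or moving cytokinin showed smaller differences. The 4 of 5 glucosyltransferase genes kept, whose enzymes inactivate cytokinin by adding glucose, lay between 0.05 and 0.20, and 0 were called. Among them *UGT76C2*, an N-glucosyltransferase, was at 0.06 with normalized signals of 513, 672 and 1048 in SS and 469, 769 and 1136 in SL. The 4 transporter genes kept lay between -0.12 and 0.09, and 0 were called.

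On the sensing side, 7 of 9 receptor and phosphotransfer genes were kept, with a median log2 fold change of -0.19 and 0 called in either fit. Of the 7, 5 were lower in all 3 pairs, beside 23.6% of all probes. *AHP3*, a phosphotransfer protein, gave normalized signals of 407, 409 and 384 in SS and 309, 325 and 275 in SL, which did not overlap (all 3 SL arrays lay below all 3 SS arrays for 4.74% of the probes kept), with a log2 fold change of -0.40 (limma adjusted p = 0.0535 with the block). *AHP2* was at -0.35 (limma adjusted p = 0.0980 with the block), also without overlap, and *AHK3* at 0.27. Over the 45 cytokinin list genes kept, all 3 SL arrays lay below all 3 SS arrays for 4 and above them for 0. The shares over all probes kept were 4.74% and 4.03%. Of the type-B response regulators, the transcription factors at the end of the chain, 7 of 11 were kept with a median of 0.17. *ARR1* was at 0.45 on the log2 scale (limma adjusted p = 0.0408 with the block) and *ARR2* at 0.42 (0.0566 with the block). Without the block *ARR1* was not called (limma unadjusted p = 0.0700). Of the type-A response regulators, which are induced by cytokinin and restrain the signal, 8 of 10 were kept, with a median of -0.06. With the block 1 was called (*ARR3*, 0.46, limma adjusted p = 0.0387). Without it *ARR3* was not called (limma unadjusted p = 0.110). Of the 6 cytokinin response factor genes, 5 were kept and 0 were called, with *CRF3* at 0.20 and *CRF5* at -0.29.

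**Figure D4:**
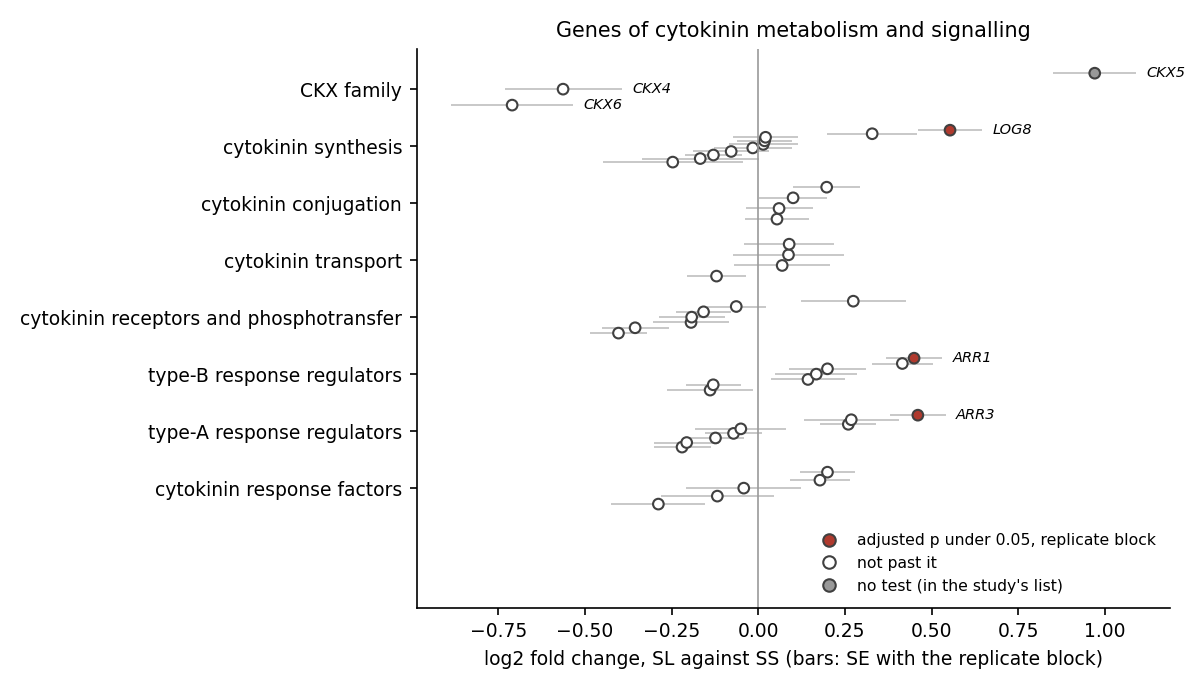
Log2 fold change (SL against SS) of the kept genes of the CKX family and of each cytokinin list, 1 point per gene, with bars for the standard error of the fit with the replicate block. Filled red points passed an adjusted p of 0.05 with the block, open points did not, and the grey point, *CKX5*, was not tested. *CKX5* at 0.97, *CKX4* at -0.56 and *CKX6* at -0.71 lie outside the range of the other genes, -0.40 to 0.55. *CKX5* had been chosen by its measured SL/SS ratio, and the confidence intervals of *CKX4* and *CKX6* reach into that range.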

How the data were processed

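Gene expression was measured on 6 single-colour Agilent arrays, 3 from SS and 3 from SL GCPs, grouped by their labels. The authors extracted the spots with Feature Extraction 11.5.1.1, and the deposited intensity values (median spot signal, local background and processed signal) carried no normalization between arrays. The processed intensity recurs in the deposited series matrix. In R 4.3.3 with limma 3.58.1, the median intensity was corrected by normexp (offset 50), brought to common quantiles over the 6 arrays and expressed as log2. Control spots and 3 to 7 outlier spots per array were left out. A probe entered the test (28852 did) when all 3 arrays of SS or of SL had it well above background. Of all probes, 34348 (78.8%) were matched to genes through a RefSeq table, without coordinates because its assembly differs from that of the files. Elsewhere the brightest probe represents a gene.

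The main test was limma without a block, adjusted by Benjamini-Hochberg over all probes kept. The alternatives were the replicate or slide block, the methods' t-test, other backgrounds, scalings, filters and left-out arrays. The number of arrays limits the precision. The numbers pair the samples, because the series description gives 1 plant batch per experiment. Deviations of same-numbered arrays from their group means correlated at 0.710, 0.855 and 0.739 (others -0.58 to -0.161). Such deviations cancel out within a group, so negative values for the others follow from the positive ones. Only the replicate 1 arrays shared their slide, so slide and batch cannot be told apart for 0.710. The genes named outside the family were those called in either fit or with the largest change in each list, and those most like *CKX5*. Members and lists were chosen with earlier results of these data known. Columns of intensity other than those named, and the qRT-PCR data, were not used here. The script was tested on simulated data.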

Additional observations from a re-analysis of the deposited data

How the results depend on the processing

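*CKX5* stayed higher and *CKX4* and *CKX6* lower in SL under all 26 alternatives, with log2 fold changes of 0.81 to 1.18, -0.83 to -0.31 and -1.18 to -0.29. Several alternatives could not change these signs. With all arrays and the main signal, the blocks, the t-test and the filters alter only the error or the probes tested. The mean over probes leaves genes with 1 probe as they were. Leaving out single arrays could not reverse *CKX5*, because all its SL arrays lay above all SS arrays. Leaving out a pair could not reverse any of the 3 genes, since all pairs of each gene had the same sign. Of the tested CKX genes, 0 were called under any alternative. The rank of the 3 probes could move only without local background subtraction and with the processed signal, which the series matrix repeats. There it moved by less than the spread between arrays. The other signal settings kept the order of probes within an array, so they could not move a rank.

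The counts of calls did change. With the replicate block 1297 probes and 3 genes of the cytokinin lists were called, against 0 and 0 without it. With the block and quantile normalization by slide the counts were 1091 and 3, with the processed signal 452 and 1 (0 higher and 1 lower in SL, so that the 3 higher calls were lost), and with 75th percentile scaling 47 and 0. Added after the data were seen, the block with no filter gave 966 and 3, and with an offset of 0 it gave 1369 and 2. With the block, leaving out pair 1, 2 or 3 gave 52, 0 and 2345 probes, and 0 to 7 cytokinin genes. The cause of these shifts was not tested. The calls of *LOG8*, *ARR1* and *ARR3* thus rest on the pairing and on the scaling. Signal near background limits *CKX1*, *CKX2*, *CKX3* and *CKX7*.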
